A study of Apostichopus japonicus with 3 samples.

Results

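Among the transcripts of the sea cucumber Apostichopus japonicus, 26 of 21290 isotigs carried the name tenascin. An isotig is a transcript put together from sequencing reads, and 1 gene can give rise to more than 1 of them through splicing, allelic variation or incomplete assembly, so the number of tenascin genes behind the 26 is unknown. The isotigs were chosen by name: the first entry in the KEGG orthology column of the deposited tables had to be tenascin. The family was singled out with its ratios between libraries already known, so the counts and ratios below describe it and test nothing.

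Messenger RNA was sequenced from 1 control library (animals in natural light of around 100 lux), 1 dark library (animals kept 2 h in a fully dark, shaded tank) and 1 light library (animals kept 2 h under strong light of around 2000 lux). The labels give no strain, age or number of animals behind a library. They name the body wall as the tissue, while intestine stands in the samples' source labels. With 1 library per group the spread between animals is unknown, and each ratio compares 2 libraries.

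Tenascins are large secreted glycoproteins of the extracellular matrix, built from EGF-like repeats, fibronectin type III repeats and a fibrinogen-like globe at the end of the chain. In vertebrates they bind integrins and proteoglycans and are known for loosening cell adhesion during development and repair. Ficolins, lectins of innate immunity, carry the same kind of fibrinogen-like domain. The sea cucumber body wall is a collagen-rich connective tissue that the animal can stiffen and soften.

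The control, dark and light tables held 1570290, 1698268 and 1644816 uniquely assigned reads. Intervals below are 95% intervals for counting error only. They treat reads as independent, and since reads copied by PCR are not independent molecules, they can be too narrow. Fibrillar collagen isotigs took 2.08%, 1.96% and 2.31% of the reads in control, dark and light, and cubilin, an uptake receptor of absorptive epithelia in vertebrates, took 0.424%, 0.241% and 0.436%. Isotigs named trypsin, a digestive protease, took 0.214%, 0.210% and 0.232%. Over whole marker lists, connective tissue names took 2.13% to 2.57% of reads and coelomocyte names 1.34% to 1.41%. Digestive tract names took 0.649% to 0.924% and muscle names 0.322% to 0.437%. All lists but the coelomocyte list were lowest in dark. Within that list, mannose receptor names took 0.980%, 1.11% and 0.921% in control, dark and light. Alpha-2-macroglobulin names, with 0.315%, 0.180% and 0.305%, were lowest in dark, as were complement component 3 and scavenger receptor names. The name patterns were broad: the digestive tract list also took in 23 neurotrypsin isotigs, ezrin, advillin and supervillin. The connective tissue list took in a neurotensin receptor and a macrophage receptor, and the coelomocyte list the receptor of alpha-2-macroglobulin. No isotig was named calponin, twitchin, chymotrypsin, sucrase or lysozyme. These markers did not settle the tissue, and their part in the dark ratios was not tested. In bulk RNA, fewer cells of a type and less RNA per cell cannot be told apart.

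The tenascin isotigs were 196 to 3134 bases long, with a median of 840 bases against 796 bases for all isotigs. The E-value of the hit behind the name ran from 5e-53 for isotig05649 to 7e-08 for isotig28889, and 4 of the 26 names rested on an E-value above 1e-10. These 4 were isotig13512, isotig27860, isotig27658 and isotig28889, and their name is uncertain. The best hit lay in a vertebrate for 16 isotigs, in a lancelet for 8 and in a sea squirt for 2. None had its best hit in a sea urchin, the echinoderm of that database, while 36.2% of the 7408 named isotigs did. Of the 105 ficolin isotigs, 13 did. Whether any sea urchin protein carries the name tenascin in that database was not checked. For 16 of the 26, ficolin stood among the lower-ranked hits of the same isotig. The name thus records similarity to chordate proteins, and for these 16 the similarity extended to ficolins.

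A further 22 isotigs had tenascin among their hits but not in first place, and 17 of them were first named ficolin. The most read of these, isotig03771, had 2114 reads in control, 1523 in dark and 2423 in light, close to the level of the most abundant members. They are left out of the family by the rule. The coordinates of the isotigs in a genome were not analysed here, and no isotig sequence was used.

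The level of the family was set by a few isotigs. Levels are given in RPKM, which divides reads by isotig length and library total. The 26 isotigs summed to 2960 RPKM in control, 3582 in dark and 2791 in light. In reads, they took 0.409% of the control library (exact binomial interval 0.399 to 0.419), 0.463% of the dark library (0.453 to 0.474) and 0.388% of the light library (0.379 to 0.398). The light library was the lowest and the dark library the highest, but the 3 lay within 1.2-fold of each other in reads.

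The most abundant member, isotig13825, had 1169 RPKM in control, 1226 in dark and 987 in light, and stood at rank 117 among all isotigs by mean RPKM. The next, isotig05649, had 679 RPKM in control, 782 in dark and 623 in light, at rank 170. Both were almost fully covered by reads in each library, and neither had ficolin among its hits. Together they made up 62.4% of the summed tenascin RPKM in control, 56.1% in dark and 57.7% in light. Both were lowest in light: isotig13825 was 1.18-fold lower in light than in control (interval 1.13 to 1.24) and isotig05649 1.09-fold lower (1.01 to 1.18). With this many reads the intervals are narrow, and differences of this size are small beside those of the less abundant members.

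**Figure D1:**
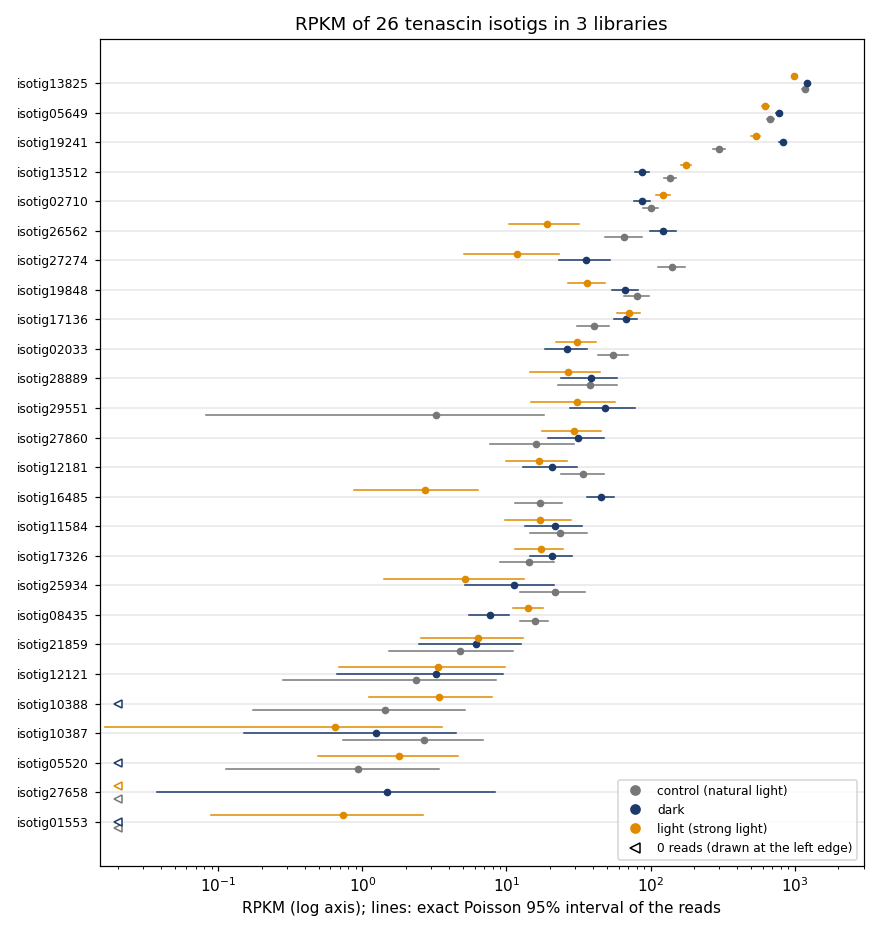
RPKM of each of the 26 tenascin isotigs (rows, ordered by mean RPKM) in the control, dark and light library on a log axis, with exact Poisson 95% intervals of the reads as lines and open triangles for 0 reads. The upper 2 rows, isotig13825 and isotig05649, keep the 3 libraries close together, while isotig27274 spreads from 140 RPKM in control to 11.8 in light.

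The third most abundant member behaved differently from these. For isotig19241 the level was 299 RPKM in control, 824 in dark and 538 in light, from 398, 1186 and 751 reads. Both exposed libraries lay above control: dark 2.76-fold higher (2.46 to 3.09) and light 1.80-fold higher (1.59 to 2.04). Its share of the summed tenascin RPKM went from 10.1% in control to 23.0% in dark and 19.3% in light. Its best hit was a lancelet tenascin with an E-value of 1e-31, and ficolin reached the same E-value as the second hit.

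Next came isotig13512, with 137 RPKM in control, 87.5 in dark and 175 in light, lowest in dark and highest in light. It was 2.00-fold higher in light than in dark (1.74 to 2.31), which lay just short of the 2-fold limit on the scale used for counting. Its name is one of the uncertain ones, and titin and tyrosine phosphatases, which also carry fibronectin type III repeats in vertebrates, stood among its other hits. For isotig02710 the level was 100.1 RPKM in control, 87.3 in dark and 122 in light, so that the 3 libraries stayed within 1.40-fold of each other in reads. With these 5 isotigs, 80.5% of the tenascin RPKM in control, 83.9% in dark and 87.6% in light is accounted for.

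**Figure D2:**
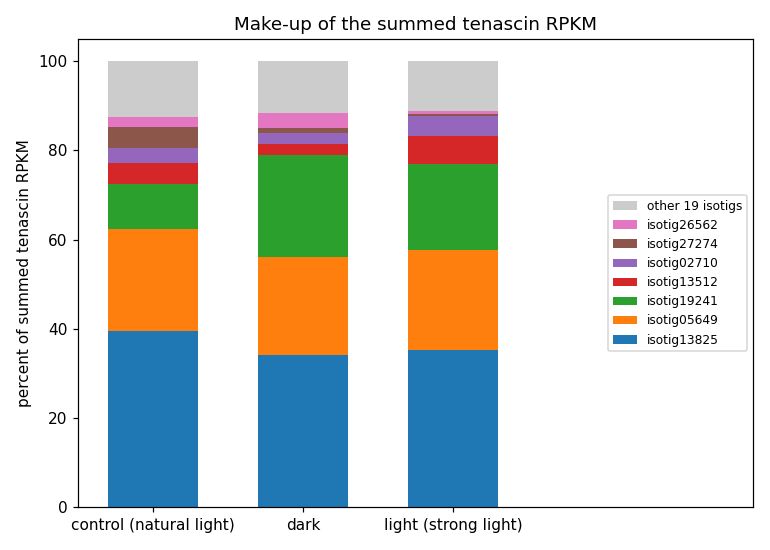
Share of the summed tenascin RPKM (percent, bars) contributed by the 5 most-read isotigs, by isotig27274 and isotig26562, and by the other 19, in each library. The band of isotig19241 is wider in dark (23.0%) and light (19.3%) than in control (10.1%), and that of isotig27274 shrinks from 4.74% in control to 0.422% in light.

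The remaining 21 isotigs had in all 624 reads in control, 652 in dark and 444 in light. Their summed reads were 1.47-fold lower in light than in control (1.30 to 1.67) and 1.42-fold lower than in dark (1.26 to 1.61), while dark and control differed by less than the counting interval (1.04-fold lower, 0.926 to 1.16). These lower levels in light came from some of the 21 and not from others.

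For the comparison of strong light with natural light, ratios were taken on log2(RPKM + 0.5), and an isotig had to reach 1 RPKM on average over the libraries. Of the 26 members 23 passed that filter. Below it lay isotig05520, isotig01553 and isotig27658, with at most 4 reads in any library. Of the 23 tested members, 2 lay at least 2-fold above control in light and 7 at least 2-fold below it. Of all 18225 tested isotigs 7.77% were higher and 7.22% lower by the same limit. Where the counting interval also had to exclude 1, the members counted were 1 higher and 6 lower, beside 2.25% and 1.95% of all tested isotigs. The family was chosen with these ratios in view, so the difference from the background is a description of the choice.

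The member furthest apart was isotig27274, a short isotig of 413 bases. It had 140 RPKM in control, 35.6 in dark and 11.8 in light, from 91, 25 and 8 reads. It was 11.9-fold lower in light than in control (5.80 to 28.4). Control was the highest library for this isotig, and dark lay between control and light, 3.94-fold below control (2.51 to 6.40). It had hits to both tenascin and ficolin.

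Another short member, isotig26562 of 447 bases, had 65.5 RPKM in control, 123 in dark and 19.04 in light, from 46, 93 and 14 reads. Light was 3.44-fold below control (1.86 to 6.78), while dark was 1.87-fold above it (1.30 to 2.72). A similar order was found for isotig16485, which had 17.0 RPKM in control, 45.0 in dark and 2.70 in light, from 30, 86 and 5 reads. It was 6.28-fold lower in light than in control (2.41 to 20.7) and 2.65-fold higher in dark (1.73 to 4.16). In both, the dark library was the highest and the light library the lowest.

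A further 3 members were at least 2-fold lower in light. The level of isotig19848 was 80.7 RPKM in control, 66.6 in dark and 36.3 in light, 2.23-fold lower in light (1.56 to 3.21). For isotig12181 it was 34.0 RPKM in control, 20.7 in dark and 16.7 in light, 2.04-fold lower in light (1.12 to 3.82), which is just past the limit. These 2 had no ficolin hit. The third, isotig25934, had 16, 9 and 4 reads in control, dark and light and was 4.19-fold lower in light (1.35 to 17.2). Light was the lowest library in all 3. Their intervals for dark vs control included 1, and for isotig19848 the log2 ratio of -0.28 in dark vs control was 0.04 with median-of-ratios size factors.

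On the higher side, isotig29551, the shortest member at 196 bases, had 1 read in control, 16 in dark and 10 in light. Its level was 3.25 RPKM in control (exact Poisson interval 0.0823 to 18.1), 48.1 in dark (27.5 to 78.1) and 31.0 in light (14.9 to 57.0). The ratio of light to control was 9.55 with a counting interval of 1.36 to 414, and that of dark to control 14.8 (2.30 to 620). Both intervals lie above 1, but their width comes from a single control read. For isotig10388, with 2, 0 and 5 reads, and isotig10387, with 4, 2 and 1, a difference was not detectable at this depth, although both passed the 2-fold limit in light vs control. They had the same E-value, to within rounding, for ficolin, lengths of 890 and 947 bases and opposite ratios, and whether reads were divided between them was not tested.

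**Figure D3:**
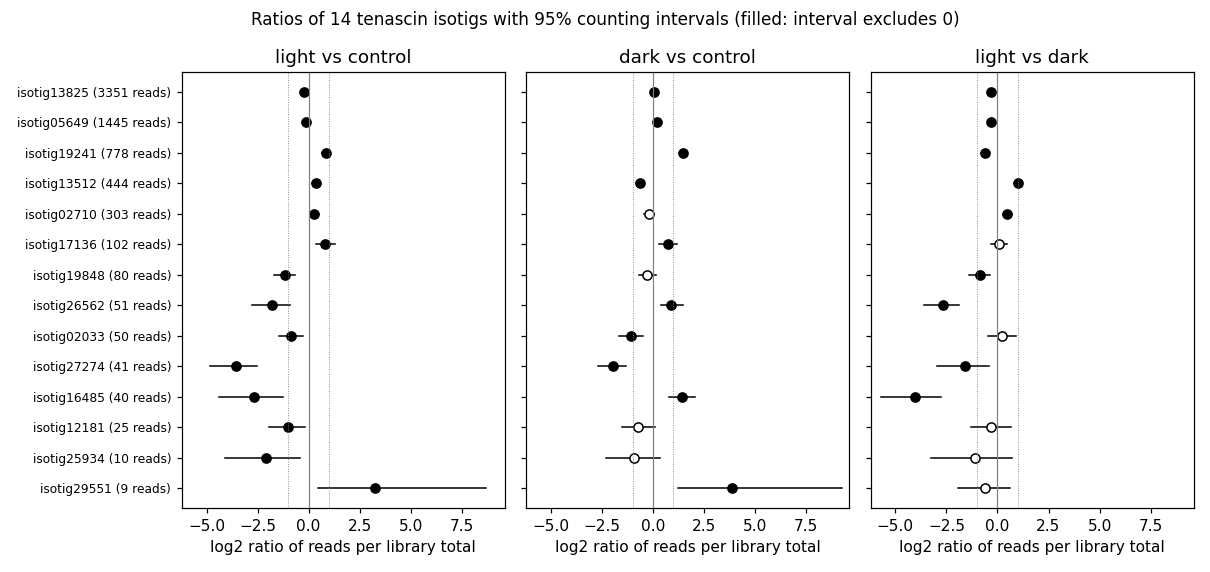
Log2 ratio of reads per library total for 14 tenascin isotigs (rows, with their mean reads over the libraries) in light vs control, dark vs control and light vs dark, with 95% counting intervals as lines, dotted lines at 2-fold, and filled points where the interval excludes 0. In light vs control, isotig27274 lies furthest to the left and isotig29551 furthest to the right, and the latter has the widest interval.

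How many isotigs pass a 2-fold limit depends on their reads. Among isotigs with a mean of 20 to 200 reads, 1.70% of 7452 were at least 2-fold higher in light than in control and 2.01% lower. Of the 9 tenascin isotigs in that range none was higher and 5 were lower. These were isotig19848, isotig26562, isotig27274, isotig16485 and isotig12181. The other 4, isotig17136, isotig08435, isotig02033 and isotig17326, had log2 ratios of 0.81, -0.14, -0.83 and 0.26. The read range was chosen after the data had been seen. The standard deviation of the log2 ratios was 1.35 over the 9 members and 0.49 over all 7452 isotigs of that range, as a description of 2 libraries.

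Among KEGG names with at least 10 tested isotigs, of which there were 39, tenascin ranked second by the share of isotigs that were at least 2-fold apart in light vs control with an interval excluding 1. Its share was 7 of 23, after 4 of 11 for an endothelial receptor tyrosine kinase and before 3 of 10 for a vasopressin receptor. Their median reads per isotig were 40.3, 11 and 12.5, in that order. Of all tested isotigs 2.25% were higher and 1.95% lower by this measure. By the 2-fold limit alone tenascin stood at rank 3, with 9 of 23, beside 7.77% of all tested isotigs higher and 7.22% lower. The family was chosen with these ratios known, so its rank describes the choice. Ficolin stood at rank 4 with 15 of 99 where the interval also had to exclude 1. By the same measure in dark vs control, tenascin stood at rank 19 of 39, with 5 of 23. Of all tested isotigs 2.57% were higher and 14.1% lower there. In light vs dark tenascin stood at rank 35, with 3 of 23, beside 16.5% of all tested isotigs higher and 3.59% lower.

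In dark vs control, 3 of the 23 tested members lay at least 2-fold above control and 3 below it, while 7.09% of all tested isotigs were higher and 24.0% lower. The median log2 ratio of the members was 0.03 and that of all tested isotigs -0.31. Where the interval also had to exclude 1, the members counted were 3 higher and 2 lower, beside 2.57% and 14.1% of all tested isotigs. Most isotigs were thus lower in the dark library on the deposited scale, and of the 23 tenascin isotigs 12 lay above 0 and 11 below. Scaling to median-of-ratios size factors moved the dark ratios up by 0.32 before the pseudocount, and the counts became 6 higher and 2 lower, beside 11.8% and 16.6% of all isotigs. The members higher by this scaling were isotig16485, isotig19241 and isotig29551, as before, and isotig17136, isotig26562 and isotig27860.

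Those counted as higher in dark on the deposited scale were isotig19241, isotig16485 and isotig29551, described above. On the lower side were isotig27274 and isotig02033, and isotig10388, whose 0 dark reads allow a level of up to 2.44 RPKM. The level of isotig02033 was 55.1 RPKM in control, 26.2 in dark and 30.7 in light, so that control was the highest. It was 2.10-fold lower in dark (1.40 to 3.22) and 1.80-fold lower in light (1.21 to 2.69). With size factors its log2 ratio in dark vs control went from -1.06 to -0.75, which is inside the 2-fold limit. The longest member, isotig08435 of 3134 bases, had 15.6 RPKM in control, 7.70 in dark and 14.2 in light. Its log2 ratio of -0.98 in dark vs control lies just inside the limit, and its reads were 2.03-fold lower (1.37 to 3.04).

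A moderately abundant member, isotig17136, had 40.2 RPKM in control, 67.0 in dark and 70.9 in light. It was 1.67-fold higher in dark (1.22 to 2.29) and 1.76-fold higher in light (1.30 to 2.42), so control was the lowest library, as it was for isotig19241 and isotig29551. Since both ratios share the control library, a low control value moves both up together. The remaining tested members had intervals that included 1 in both comparisons with control. They were isotig17326, isotig11584, isotig28889, isotig27860, isotig21859, isotig12121, isotig10387 and isotig10388, with 21 or fewer reads in each library except for isotig17326, which had 23, 36 and 29. At this depth no difference was detectable for them on the deposited scale. With size factors isotig27860 was counted as higher in dark, and intervals were not computed on that scale.

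The direct comparison of strong light with darkness does not use the control library. Here 1 member was at least 2-fold higher in light than in dark and 4 lower, while 26.2% of all tested isotigs were higher and 8.09% lower. The median log2 ratio was -0.31 over the members and 0.32 over all tested isotigs, and 15 of the 23 members lay below 0. Where the interval also had to exclude 1, the members counted were 0 higher and 3 lower, beside 16.5% and 3.59%. The 3 were isotig16485, 16.7-fold lower in light than in dark (6.87 to 52.6), isotig26562, 6.43-fold lower (3.65 to 12.2), and isotig27274, 3.03-fold lower (1.32 to 7.76). These 3 also lay below control in light. The other one past the 2-fold limit, isotig25934, was 2.18-fold lower (0.608 to 9.68), and the higher one was isotig10388 with its 5 light reads and 0 dark reads, so neither difference was detectable at this depth.

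The sum over the family differed less than the members furthest apart did. Summed reads were 1.13-fold higher in dark than in control (1.10 to 1.17), 1.05-fold lower in light than in control (1.02 to 1.09) and 1.19-fold lower in light than in dark (1.15 to 1.23). The log2 ratios of the summed RPKM were 0.27, -0.09 and -0.36. On the deposited scale the dark value rested on isotig19241: without it the log2 ratio of dark to control was 0.05, and that of light to control was -0.24. With size factors the summed log2 ratio in dark vs control was 0.59, and the median of all isotigs moved from -0.31 to 0.00. These factors moved dark ratios up by 0.32, and the sum without isotig19241 was not computed with them.

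The 16 isotigs with a ficolin hit and the 10 without differed in level. Those without held 2187 RPKM in control, 2365 in dark and 1908 in light, and those with a ficolin hit held 774, 1217 and 883. In reads, the set with a ficolin hit was 1.63-fold higher in dark than in control (1.51 to 1.77), and the set without was 1.04-fold higher (0.998 to 1.07). When isotig19241 was left out of the first set, the remaining 15 had 641 reads in control, 651 in dark and 634 in light, and dark was 1.06-fold lower (0.953 to 1.19). On the deposited scale the higher dark level of this set was therefore that of isotig19241. Isotigs at least 2-fold lower in light occurred in both sets, 4 of 14 tested with a ficolin hit and 3 of 9 without. Of all tested isotigs 7.22% were lower by this limit. The 4 included isotig10387, with 4 reads in control and 1 in light and an interval that included 1.

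The part of each isotig that its reads covered varied among the members. For comparison, the coverage was computed that the same number of reads of 49 bases would give if spread evenly along the isotig. In control, 10 tenascin isotigs had enough reads for an even coverage of at least 95%, and 7 of them were covered over less than 80% of their length. Of all isotigs with such counts 22.0% were below 80%. In dark this held for 6 of 11 tenascin isotigs and 23.9% of all, and in light for 3 of 6 and 22.5%.

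The clearest case was isotig02710, of which 37.3%, 37.1% and 39.1% was covered in control, dark and light, where an even spread would give 99.9% or more. The longest member, isotig08435, was covered over 20.7%, 20.1% and 21.6%, where an even spread would give 70.0%, 47.3% and 68.1%. In both the covered part was nearly the same size in every library while the reads differed. Only uniquely assigned reads were counted, and where part of an isotig receives no reads, RPKM over its whole length is lower than RPKM over the covered part. Whether reads shared with related isotigs were left out was not tested. By contrast the covered part of isotig16485 rose with its reads, at 63.3% in control, 83.4% in dark and 18.0% in light. An even spread would give 72.9%, 97.6% and 19.6%, so the covered part fell short of this, most in dark.

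**Figure D4:**
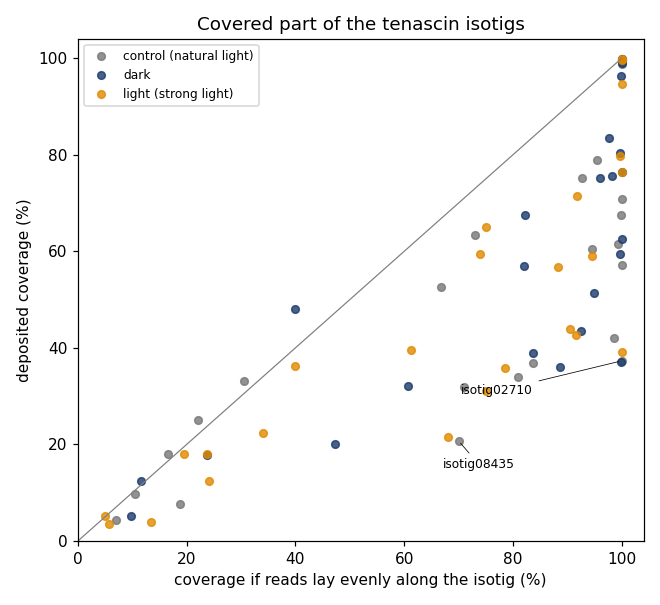
Deposited coverage of each tenascin isotig (percent of its length, y axis) against the coverage that its reads would give if laid evenly along it (percent, x axis), 1 point per isotig and library with reads, with the line of equality. Many points fall below the line at the right-hand side, among them isotig02710 at 37.3% in control, while isotig13825 and isotig05649 lie at the upper right corner.

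Among isotigs named for proteins that bind tenascins or share their matrix in vertebrates, integrin subunits and laminins with nidogen had low medians in the dark library, where 24.0% of all tested isotigs were at least 2-fold lower than in control and 7.09% higher. Of 18 integrin subunit isotigs, which are receptors for matrix proteins, none was at least 2-fold apart in light vs control. For all tested isotigs the shares in that comparison were 7.77% higher and 7.22% lower. In dark vs control, 14 of the 18 were lower and 0 higher. Their median log2 ratio in dark vs control was -1.39, against 0.03 for tenascin and -0.31 for all tested isotigs. One of them, an integrin beta 1 isotig (isotig10927), had 192 reads in control, 40 in dark and 187 in light, 5.19-fold lower in dark (3.68 to 7.49). Laminins and nidogen, which build basement membranes, had 8 of 19 isotigs lower in dark and 0 higher, with a median of -0.91. Of 9 isotigs named for neurocan and its relatives aggrecan and brevican, 3 were higher in dark and 1 lower, with a median of 0.92, and of 4 fibrillar collagen isotigs 0 were higher and 1 lower, with a median of -0.16. These subgroups were formed after the names had been seen.

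Over the whole list of matrix partners, with 108 tested, 8 lay at least 2-fold above control in light and 6 below it, and there were 5 higher and 57 lower in dark vs control. Of all tested isotigs, 7.77% were higher and 7.22% lower in light, and 7.09% higher and 24.0% lower in dark. The medians were 0.17 and -1.05. The name patterns also took in disintegrin proteases and other enzymes. With these left out 83 isotigs remained, and 3 were higher and 43 lower in dark. Among list members with a mean of at least 100 reads, a thrombospondin isotig (isotig03731) was lowest in dark, with 227 reads in control, 41 in dark and 325 in light. A second thrombospondin isotig (isotig03733), with 227, 207 and 121 reads, was lowest in light, at a log2 ratio of -0.97. Agrin (isotig20012), a heparan sulfate proteoglycan, and chondroitin sulfate proteoglycan 4 (isotig08961) were highest in light, both with a log2 ratio of 0.59. Highest in dark were laminin alpha 3/5 (isotig15850), with a log2 ratio of 0.23, and an isotig named neurocan (isotig10750).

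Neurocan is a proteoglycan that tenascin binds in the vertebrate brain. Its isotig had 107 reads in control, 440 in dark and 84 in light and was 3.80-fold higher in dark (3.07 to 4.74), with an uncertain name at an E-value of 7e-09. Light and control differed by less than the counting interval (1.33-fold lower in light, 0.993 to 1.80).

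Ficolin stood among the hits of 16 of the 26 members. Of 99 tested ficolin isotigs, 10 lay at least 2-fold above control in light and 16 below it, and 14 above and 14 below it in dark, with medians of -0.06 and 0.00. For all tested isotigs the shares were 7.77% and 7.22% in light and 7.09% and 24.0% in dark. Where the interval also had to exclude 1, 9 ficolin isotigs were higher and 6 lower in light, and 13 higher and 7 lower in dark, beside 2.25% and 1.95%, and 2.57% and 14.1%, of all tested isotigs. In the wider fibrinogen-domain list of 111 tested isotigs, 12 were higher and 18 lower in light, and 16 higher and 17 lower in dark. Its lowest well-counted members in light were an isotig named angiopoietin-like 4 (isotig21446), with 199 reads in control, 96 in dark and 89 in light, and a ficolin (isotig23973) with 216, 88 and 105. The same pair was lowest in dark. Highest in light were ficolins with 74, 155 and 257 reads (isotig03191) and with 83, 235 and 210 (isotig09563), and highest in dark ficolins with 54, 375 and 130 (isotig24848) and with 57, 262 and 119 (isotig11660). The last pair also carried tenascin as a lower-ranked hit.

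**Figure D5:**
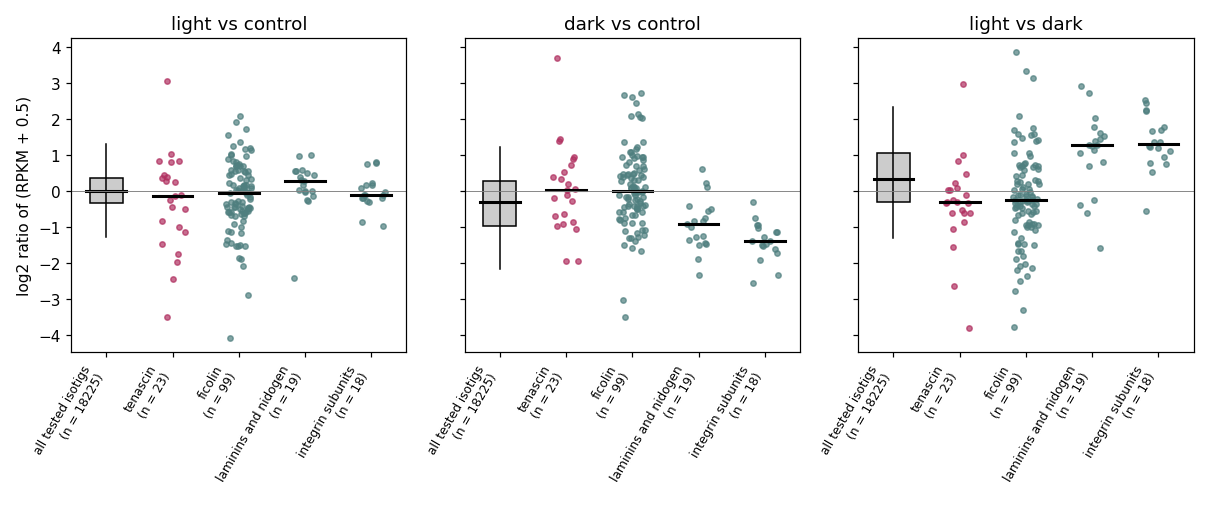
Log2 ratio of (RPKM + 0.5) of single isotigs in 5 sets (x axis, with the number tested) for each comparison: points are isotigs, black bars are medians, and for all tested isotigs the box spans the middle quartiles and the line the 5th to 95th percentile. In dark vs control the integrin subunits (median -1.39) and the laminins with nidogen (median -0.91) lie below the median of all isotigs, while tenascin (0.03) and ficolin (0.00) lie above it.

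Summed over all isotigs of a name, 2015 KEGG names had at least 100 reads over the 3 libraries. The 3 nearest to tenascin in the pair of log2 ratios, -0.09 in light vs control and 0.27 in dark vs control, were glucosamine-6-phosphate deaminase (-0.07 and 0.29), neogenin (-0.09 and 0.24) and cofilin (-0.07 and 0.23). The distances were 0.0224, 0.0319 and 0.0492 on the log2 scale. With 3 libraries such likeness is easily met, and the deaminase rested on 33, 55 and 35 reads.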

How the data were processed

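Each of the 3 libraries has a table with read counts (unique assignments) for each isotig, the percent of the isotig covered and RPKM, all deposited by the authors. Per the labels' protocols, mRNA was selected with oligo(dT) beads, fragmented and primed with random hexamers; no strand marking or molecular identifier is recorded. CASAVA 1.5 is named in the submitters' processing notes. Neither an assembler nor an aligner is given in the sources used here. The deposited counts sum to the header total, and the deposited RPKM equals reads divided by length and total. Isotigs missing from a table were taken as 0 reads. Isotigs with 1 read were covered over 49 bases, taken as the read length.

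Log2 ratios used RPKM plus 0.5, and isotigs had to average at least 1 RPKM. Ratios of reads per total have exact conditional binomial (Clopper-Pearson) 95% intervals (scipy 1.17.1), levels exact Poisson intervals; both cover counting error only. TMM factors came from edgeR 4.0.16. The steps were tested on simulated data. Members and lists were chosen with earlier results of these data known. Isotigs were named if among the 10 highest by mean RPKM, or at least 2-fold apart with an interval excluding 1; further members are named to account for all 26. From each list, the 2 highest and 2 lowest with at least 100 mean reads were named, and the 3 nearest orthologies.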

Additional observations from a re-analysis of the deposited data

How the results depend on the processing

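No paired analysis was possible because each group has 1 library, and for the same reason no replicate could be left out. The 2-fold limit was most sensitive for weakly read members. In light vs control the 7 members lower stayed within 1.5-fold of that count under every alternative run, while the 2 higher became 1 with a pseudocount of 1 RPKM, a filter of 5 RPKM, size factors, TMM factors or a minimum length of 300 bases. In dark vs control the 3 higher became 6 with size factors and 6 with TMM factors, and the 3 lower became 5 with a pseudocount of 0.1 RPKM. In light vs dark the 1 higher became 3 without a filter and 0 with a filter of 5 RPKM.

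The summed log2 ratio in dark vs control, 0.27, was 0.59 with size factors, 0.58 with TMM factors, 0.40 without isotig13825 and 0.05 without isotig19241. In light vs dark, -0.36 became -0.69 with either set of factors, -0.42 with names of an E-value of at most 1e-10, and -0.29 both without isotig19241 and with isotigs that have tenascin as a lower-ranked hit. In light vs control, -0.09 became 0.01 without isotig13825, -0.24 without isotig19241 and 0.03 with the lower-ranked hits. Leaving out isotig19241 and adding the lower-ranked hits were chosen after seeing the data. For the 14 named isotigs, 168 values were computed under alternatives. Of these, 148 moved by less than the distance from the middle of their log2 counting interval to its end. The other 20 moved further, all under size or TMM factors and all in the 5 most-read isotigs. Intervals are wider at lower reads and allow larger shifts, so this tally follows read depth. Of the ratios at least 2-fold apart, 0 changed direction. Depth limits the members with a mean under 20 reads, most of whose counting intervals include 1.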
